A study of Mus musculus with 6 samples.

Results

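The genes described are 10 transcripts that mark T lymphocytes and natural killer (NK) cells: Cd3d, Cd3e, Cd3g, Cd247, Cd4, Cd8a, Cd2, Gzmb, Nkg7 and Il2rb. They were chosen by symbol from a list of lymphocyte markers, and all 10 were found among 35975 gene rows with counts. All 10 also passed the filter on low counts, with 13573 genes tested in all. Each was read in messenger RNA libraries of interscapular brown fat, the heat-producing depot between the shoulder blades of the mouse.

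The Olfm4CKO mice carry Ucp1-Cre together with floxed Olfm4 (Olfm4 flox/flox), so that Cre under the Ucp1 promoter deletes Olfm4, a gene for a secreted glycoprotein, in brown adipocytes. That is not the cell type that these 10 genes mark. The mice they are compared with are labelled Ctrl, and the labels do not say whether they carry floxed alleles or the Cre transgene. Both groups are on a C57BL/6 background, and no age, sex or housing temperature is stated for them. Because titles in both groups hold the tag "Olfm4 WT", the genotype field was used to assign groups. The labels give 3 libraries a group, but the rows of the replicate 3 columns do not follow the printed gene names (rank correlation with the other libraries from -0.0209 to -0.0156), so every value below comes from 2 Olfm4CKO and 2 Ctrl libraries. Whether each library is a different mouse is not stated. The 2 Ctrl libraries differ in the sex-linked transcripts given below, so they are not repeat libraries of 1 RNA sample. For the 2 Olfm4CKO libraries this is not known. A p-value here reflects library-to-library spread, which may be technical in part.

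Total counts were 15547569 and 15346705 in Olfm4CKO replicates 1 and 2, and 15953676 and 17309325 in Ctrl replicates 1 and 2. Olfm4 had 0 counts in all 4 libraries, which allows up to 0.194 CPM in an Olfm4CKO library and up to 0.188 CPM in a Ctrl library, so its level gives no test of the genotypes. The Y-linked Ddx3y had 0 counts in both Olfm4CKO libraries, against 1300 in Ctrl replicate 1 and 0 in Ctrl replicate 2. Xist, the RNA that coats the inactive X chromosome, had 215 and 207 CPM in Olfm4CKO, against 0 CPM in Ctrl replicate 1 and 49.5 CPM in Ctrl replicate 2. The Y-linked Eif2s3y, Uty and Kdm5d likewise had 886, 337 and 275 counts in Ctrl replicate 1 and 0 in each other library. By these transcripts Ctrl replicate 1 reads as male. Ctrl replicate 2 and both Olfm4CKO libraries held Xist and none of these Y-linked transcripts. Sex was thus not balanced between the groups, and it differed between the 2 controls. In Xist, Ctrl replicate 2 also lay below both Olfm4CKO libraries. The depot's own markers were present: all 11 brown adipocyte markers were tested, and their summed level was 19430 and 11060 CPM in Olfm4CKO and 18440 and 23610 CPM in Ctrl.

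T cells recognise antigen through a receptor whose signal is passed on by the CD3 chains and the zeta chain, with CD4 or CD8 as coreceptor on the main subsets. NK cells lack that receptor and share with cytotoxic T cells the granule proteins that kill target cells, and both depend on cytokines read through the shared beta chain of the IL-2 and IL-15 receptors. Lymphocytes are a small resident population in adipose tissue. In RNA of whole tissue, fewer cells of a type and less RNA per cell cannot be told apart.

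The 10 genes were low in every library and differed more within the controls than between the genotypes. Their summed level was 21.1 and 28.1 CPM in Olfm4CKO replicates 1 and 2, against 16.3 and 70.4 CPM in Ctrl replicates 1 and 2. Exact Poisson 95% intervals, which cover counting error only, ran from 18.8 to 23.5 and from 25.6 to 30.9 CPM in Olfm4CKO, and from 14.4 to 18.4 and from 66.5 to 74.6 CPM in Ctrl. Both Olfm4CKO libraries thus lay between the control libraries, the higher of which had 4.33 times the level of the other. The mean was 24.6 ± 4.99 CPM in Olfm4CKO and 43.4 ± 38.3 CPM in Ctrl (SD, n = 2 each), so the difference of -18.8 CPM was smaller than the spread of the controls. Without Ctrl replicate 2 it was 8.30 CPM, with Olfm4CKO the higher group.

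**Figure D1:**
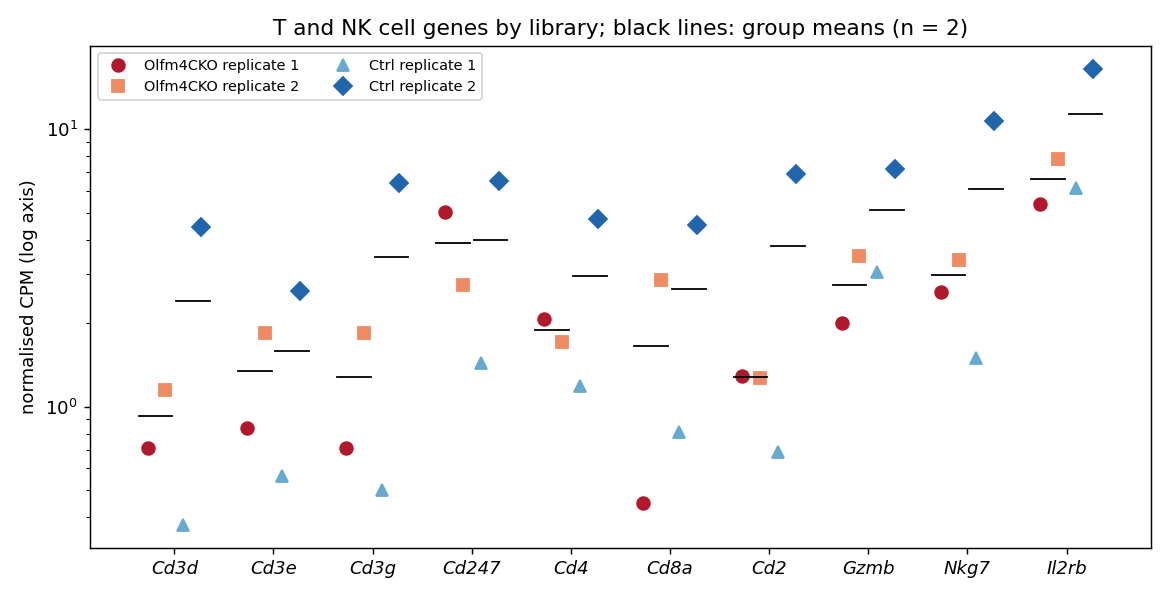
Each point is 1 library's TMM-normalised CPM (log axis) for 1 of the 10 genes, with the 2 Olfm4CKO libraries left of the 2 Ctrl libraries, and black lines mark group means. Ctrl replicate 2 is the highest library for all 10 genes and Ctrl replicate 1 the lowest for 7.

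Of the promoters in the RefSeq table on GRCm38.p6, which gives 250 bases before and 50 from the start of transcription, 7 of the 10 genes were matched (Cd2, Cd4 and Il2rb were not). The core that RUNX factors of lymphocytes bind, TGTGGT on either strand, was searched in them. It was found in 2 of the 7, Gzmb and Nkg7, and in 16.8% of all 32851 promoters of that length. Both are shown with the match in capitals (ACCACA on the printed strand is the same core on the other), because they are the granule genes of the set, and those of Cd3g and Cd3d, which hold no match, because these genes are read in opposite directions from starts 1355 bases apart. A match of letters is a description and not a binding site.
Gzmb, chr14:56262285-56262584, minus strand: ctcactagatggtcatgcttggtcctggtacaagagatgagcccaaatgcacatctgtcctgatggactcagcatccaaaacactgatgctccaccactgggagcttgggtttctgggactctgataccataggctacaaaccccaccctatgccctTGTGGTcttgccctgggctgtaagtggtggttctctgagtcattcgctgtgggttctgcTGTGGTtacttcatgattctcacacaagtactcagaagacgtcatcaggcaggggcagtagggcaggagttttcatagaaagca
Nkg7, chr7:43436888-43437187, plus strand: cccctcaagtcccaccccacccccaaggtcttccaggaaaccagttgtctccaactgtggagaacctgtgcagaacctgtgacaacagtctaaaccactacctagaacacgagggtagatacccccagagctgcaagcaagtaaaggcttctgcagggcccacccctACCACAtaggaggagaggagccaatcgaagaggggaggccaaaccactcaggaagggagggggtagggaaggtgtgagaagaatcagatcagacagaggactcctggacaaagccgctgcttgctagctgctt
Cd3g, chr9:44980382-44980681, minus strand: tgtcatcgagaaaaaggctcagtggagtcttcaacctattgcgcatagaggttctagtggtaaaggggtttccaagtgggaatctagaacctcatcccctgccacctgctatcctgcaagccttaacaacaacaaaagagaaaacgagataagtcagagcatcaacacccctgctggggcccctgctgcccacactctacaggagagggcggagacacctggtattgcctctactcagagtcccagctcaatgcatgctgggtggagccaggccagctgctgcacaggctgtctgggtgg
Cd3d, chr9:44981536-44981835, plus strand: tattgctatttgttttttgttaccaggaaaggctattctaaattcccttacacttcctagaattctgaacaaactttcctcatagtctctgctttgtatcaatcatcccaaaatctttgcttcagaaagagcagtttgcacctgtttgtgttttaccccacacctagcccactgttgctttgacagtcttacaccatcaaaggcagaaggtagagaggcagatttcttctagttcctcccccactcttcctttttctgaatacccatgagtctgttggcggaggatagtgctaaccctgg

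The CD3 chains couple the T cell receptor to signalling, and their genes lie side by side on chromosome 9 (GRCm38 coordinates from GENCODE vM21, protein-coding, as for all 10). Cd3g, the gamma chain (44969572 to 44980431, minus strand), had 0.710 and 1.84 CPM in Olfm4CKO replicates 1 and 2, against 0.501 and 6.40 CPM in Ctrl replicates 1 and 2. Cd3d, the delta chain (44981786 to 44987339, plus strand), had 0.710 and 1.15 CPM in Olfm4CKO, against 0.376 and 4.45 CPM in Ctrl. Cd3e, the epsilon chain (44998740 to 45009627, minus strand), had 0.840 and 1.84 CPM in Olfm4CKO, against 0.564 and 2.61 CPM in Ctrl. For all 3 chains Ctrl replicate 1 was lowest, Olfm4CKO replicate 1 next, then Olfm4CKO replicate 2, and Ctrl replicate 2 highest. The counts behind these levels were small, with 11, 11 and 13 for Cd3g, Cd3d and Cd3e in Olfm4CKO replicate 1 and 8, 6 and 9 in Ctrl replicate 1. The ratio of Ctrl replicate 2 to Ctrl replicate 1 was 12.8 for Cd3g (exact 95% counting interval 6.26 to 30.4) and 11.8 for Cd3d (5.19 to 33.3), the widest gaps between the controls among the 10 genes. For Cd3e it was 4.63 (2.23 to 10.8).

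Cd247 encodes the zeta chain, which also serves activating receptors of NK cells. On chromosome 1 (165788681 to 165877277, plus strand), it had 5.04 and 2.74 CPM in Olfm4CKO replicates 1 and 2, against 1.44 and 6.52 CPM in Ctrl replicates 1 and 2. Unlike the 3 CD3 chains, it was higher in replicate 1 than in replicate 2 of Olfm4CKO, with a ratio of replicate 2 to replicate 1 of 0.543 (counting interval 0.365 to 0.798). Of its 5329 annotated exon bases, 3007 are also exon of Pou2f1 on the opposite strand. The strand setting of the counting is not given, so reads over these bases may have been assigned to either gene or to neither. Pou2f1 had 134 and 202 counts in Olfm4CKO, against 119 and 69 in Ctrl, which is another order of the libraries than that of Cd247. The effect of gained or lost reads on the level of Cd247 was not tested. Of the other 9 genes, Cd3e alone shares exon bases with an annotated gene, 135 of 4080 bases with an antisense transcript. A further 206 exon bases of Cd247 are shared with a transcript on its own strand.

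The coreceptors mark helper T cells (Cd4) and cytotoxic T cells (Cd8a), and Cd4 is also known from some myeloid cells. Cd4 (chromosome 6, 124864692 to 124888221, minus strand) had 2.07 and 1.72 CPM in Olfm4CKO, against 1.19 and 4.74 CPM in Ctrl. Cd8a (chromosome 6, 71373427 to 71379173, plus strand) had 0.452 and 2.86 CPM in Olfm4CKO, against 0.814 and 4.51 CPM in Ctrl, with Olfm4CKO replicate 1 lowest. The Olfm4CKO libraries were close to each other for Cd4 and far apart for Cd8a, with 7 counts in replicate 1 and 45 in replicate 2, a ratio of 6.33 (counting interval 2.83 to 16.6). Per kilobase of exon, the ratio of Cd4 to Cd8a was 4.12 (counting interval 1.79 to 11.1) and 0.541 (0.323 to 0.891) in Olfm4CKO replicates 1 and 2, against 1.32 (0.618 to 2.90) and 0.950 (0.685 to 1.32) in Ctrl replicates 1 and 2. The 2 Olfm4CKO libraries lay on opposite sides of 1 beyond counting error, and both controls had intervals that hold 1.

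Cd2, an adhesion receptor of T and NK cells (chromosome 3, 101275899 to 101287939, minus strand), had 1.29 and 1.27 CPM in Olfm4CKO, against 0.689 and 6.88 CPM in Ctrl. It was the most even gene between the Olfm4CKO libraries, with 20 counts in each, while the controls differed by 9.99 times (counting interval 5.38 to 20.6).

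Gzmb encodes granzyme B, a protease that enters target cells, and Nkg7 a membrane protein of cytotoxic granules. Gzmb (chromosome 14, 56258838 to 56262260, minus strand, within a cluster of related granzyme genes) had 2.0 and 3.50 CPM in Olfm4CKO, against 3.07 and 7.17 CPM in Ctrl. Here the controls did not enclose the knockouts: Olfm4CKO replicate 1 was lowest and Ctrl replicate 1 lay between the Olfm4CKO libraries. Nkg7 (chromosome 7, 43437073 to 43438249, plus strand) had 2.58 and 3.37 CPM in Olfm4CKO, against 1.5 and 10.7 CPM in Ctrl, with Ctrl replicate 1 lowest. The 2 granule genes whose promoters hold the RUNX core thus differed in which library was lowest, and in the ratio of Ctrl replicate 2 to Ctrl replicate 1, 2.34 for Gzmb (counting interval 1.67 to 3.33) and 7.10 for Nkg7 (4.62 to 11.4).

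Il2rb encodes the beta chain shared by the IL-2 and IL-15 receptors (chromosome 15, 78479256 to 78495271, minus strand). It had the most counts of the 10 genes, 582 over the 4 libraries, and 5.36 and 7.82 CPM in Olfm4CKO, against 6.14 and 16.5 CPM in Ctrl. Olfm4CKO replicate 1 was lowest, Ctrl replicate 1 lay between the Olfm4CKO libraries, and Ctrl replicate 2 was highest. Its highest library had 3.08 times the level of its lowest, the narrowest span of the 10 genes, against 12.8 times for Cd3g, the widest.

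Levels of different genes were compared per kilobase of annotated exon, as the mean ± SD of normalised CPM per kilobase over the 4 libraries. Nkg7 was highest at 4.96 ± 4.56, followed by Gzmb at 2.74 ± 1.57, Il2rb at 2.09 ± 1.20 and Cd2 at 1.46 ± 1.67. The CD3 chains, the zeta chain and the coreceptors ran from 0.359 ± 0.231 for Cd3e to 0.920 ± 1.04 for Cd3d. The SDs hold the wide gap between the libraries, and the order was not the same in each: Nkg7 had 1.64 and Gzmb 2.14 CPM per kilobase in Ctrl replicate 1, and Cd2 was below Cd247 in Olfm4CKO replicate 1, below Cd8a in Olfm4CKO replicate 2 and above Il2rb in Ctrl replicate 2. Over the 4 libraries no neighbours in the order differed by more than the larger of their SDs. The exon union used as length holds alternative and retained exons, which lowers the value of genes with many transcripts. For Cd247 it also holds the bases shared with Pou2f1, and the effect on its value was not tested.

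None of the 10 genes passed the test between Olfm4CKO and Ctrl. With edgeR's quasi-likelihood test and Benjamini-Hochberg adjustment over 13573 genes, 0 of 10 had an adjusted p below 0.05, where 0.0% of all tested genes did, and each had an adjusted p of 0.9998. At an unadjusted p below 0.05 there were also 0 of the 10, against 2.11% of all tested genes, and 0 of the 10 were called by DESeq2 (0.00737% of all tested genes), by limma-voom (0.0%) or with the replicate number as a block (0.0295%). All 10 log2 fold changes lay below 0, as did 51.4% of those of all tested genes, with a median of -0.84 beside -0.01 over all tested genes. The 10 genes were read in the same libraries, so their signs are not independent of each other. Cd2 had a log2 fold change of -1.56 ± 0.87 (SE; 95% interval -3.49 to 0.37), Cd3g -1.43 ± 0.96, Cd3d -1.37 ± 0.95 and Nkg7 -1.03 ± 0.75. Nearest to 0 were Cd247 at -0.04 ± 0.68 (-1.54 to 1.47) and Cd3e at -0.24 ± 0.81. Gzmb was at -0.90 ± 0.58, Il2rb at -0.78 ± 0.51, Cd8a at -0.68 ± 0.92 and Cd4 at -0.65 ± 0.70. The leading values were smaller under limma-voom and with the replicate number as a block, at -0.79 and -0.92 for Cd2, -0.67 and -0.86 for Cd3g, -0.56 and -0.77 for Cd3d, and -0.46 and -0.52 for Nkg7. The half-width of the 95% interval ran from 1.13 for Il2rb to 2.11 for Cd3g on the log2 scale. The lower bounds lay between -3.54 (Cd3g) and -1.54 (Cd247) and the upper bounds between 0.35 (Il2rb) and 1.54 (Cd3e).

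The sign of the fold changes depended on Ctrl replicate 2. Without Ctrl replicate 2, 9 of the 10 log2 fold changes lay above 0 (median 1.02), led by Cd247 at 1.43, Cd3g at 1.35, Cd3d at 1.30 and Cd3e at 1.25, and Gzmb alone stayed below 0 at -0.15 (-0.90 with all 4 libraries); over all genes of that fit 47.6% lay below 0. Without Ctrl replicate 1, all 10 lay below 0 (median -1.41), from -0.75 for Cd247 to -2.42 for Cd2, while 48.8% of all genes of that fit did. In the same fit 6 of the 10 had an unadjusted p below 0.05, against 4.77% of all genes tested in that fit. None of the 10 was called in that fit (smallest adjusted p = 0.179, edgeR; 0.175% of all genes called), nor without Ctrl replicate 2 (0.19% of all genes called), Olfm4CKO replicate 1 (0.19%) or Olfm4CKO replicate 2 (0.042%). Without Olfm4CKO replicate 1 the median was -0.65, and Cd3e (0.23) and Cd8a (0.12) lay above 0, with 52.5% of all genes below 0. Without Olfm4CKO replicate 2 the median was -1.30, with Cd8a at -2.54 and Cd3g at -2.27, and Cd247 lay above 0 at 0.33, again with 52.5% of all genes below 0. Where a fit kept 1 library in a group, its spread was taken from the other group. Ctrl replicate 1 is the library that reads as male, so without Ctrl replicate 2 the groups also differed in sex-linked transcripts. Without Ctrl replicate 1 every library left held Xist and none of the Y-linked transcripts. The part of this in the signs was not tested.

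**Figure D2:**
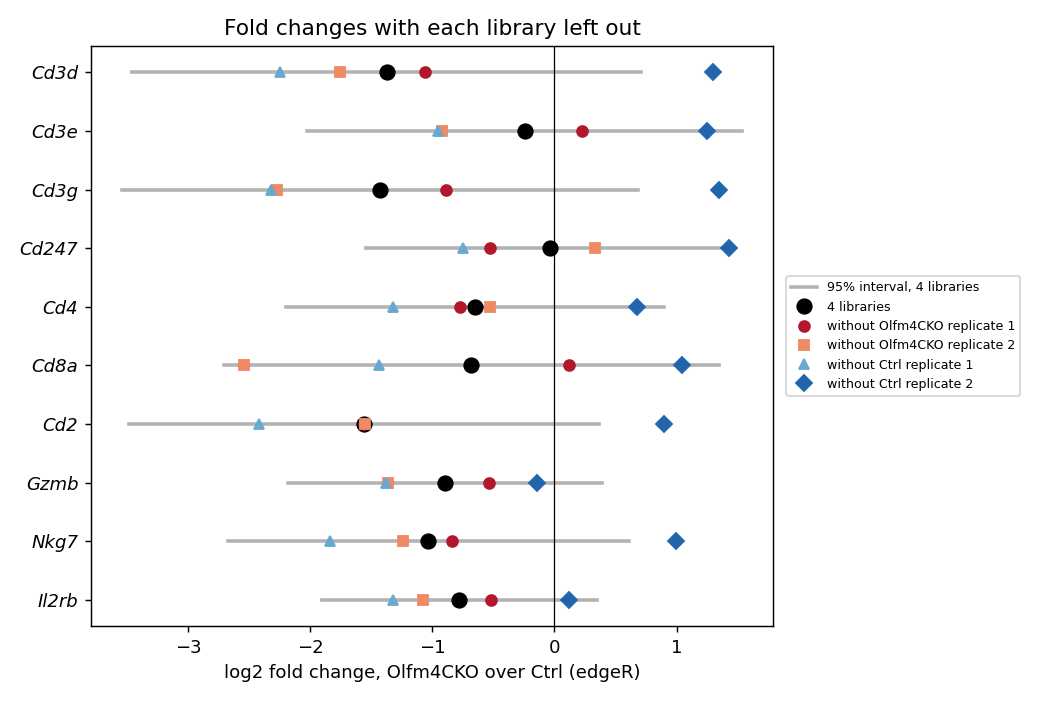
Log2 fold changes of Olfm4CKO over Ctrl from edgeR for each of the 10 genes: black circles with grey 95% intervals use 4 libraries, coloured symbols leave out the named library. The blue diamonds, without Ctrl replicate 2, lie above 0 for 9 genes, and all 10 intervals cover 0; for Cd2 the symbols without either Olfm4CKO library lie on the black circle.

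The order of the 4 libraries can be described without the test. Ctrl replicate 2 was the highest library for 10 of the 10 genes, while it was highest for 26.2% of all tested genes. Ctrl replicate 1 was lowest for 7 of them, against 19.3% of all tested genes, and Olfm4CKO replicate 1 for the other 3 (Cd8a, Gzmb and Il2rb), against 27.0%. Both Olfm4CKO libraries lay between the controls for 7 genes, against 18.2% of all tested genes. The groups did not overlap for 0 of the 10, while Olfm4CKO lay wholly below Ctrl for 12.8% and wholly above it for 11.8% of all tested genes. On counts alone, both Olfm4CKO libraries together were below Ctrl replicate 2 for all 10 genes (counting intervals of the ratio below 1), with ratios from 0.186 for Cd2 to 0.595 for Cd247. Against Ctrl replicate 1 the ratio lay above 1 beyond counting error for 6 genes, among them Cd247 at 2.69 (1.71 to 4.41) and Nkg7 at 1.98 (1.26 to 3.25), and it was 0.898 (0.625 to 1.30) for Gzmb. These intervals compare libraries and leave out the spread between samples of a group.

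The make-up of the 10 genes' summed counts was set out by role. Gzmb and Nkg7 together took 21.8% and 24.4% of these counts in Olfm4CKO replicates 1 and 2, against 28.1% and 25.3% in Ctrl replicates 1 and 2, with exact (Clopper-Pearson) 95% intervals that all overlap. Cd4 and Cd8a together took 12% and 16.3% in Olfm4CKO, against 12.3% and 13.1% in Ctrl. The 3 CD3 chains took 10.7% (7.59% to 14.6%) and 17.2% (13.8% to 21.0%) in Olfm4CKO, against 8.85% (5.69% to 13.0%) and 19.1% (16.9% to 21.5%) in Ctrl. Their share was higher in replicate 2 of each group, with intervals that overlap in Olfm4CKO and do not in Ctrl. Il2rb ran the other way within the controls, with 25.5% and 27.8% in Olfm4CKO, against 37.7% (31.8% to 43.9%) in Ctrl replicate 1 and 23.4% (21.0% to 25.9%) in Ctrl replicate 2.

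**Figure D3:**
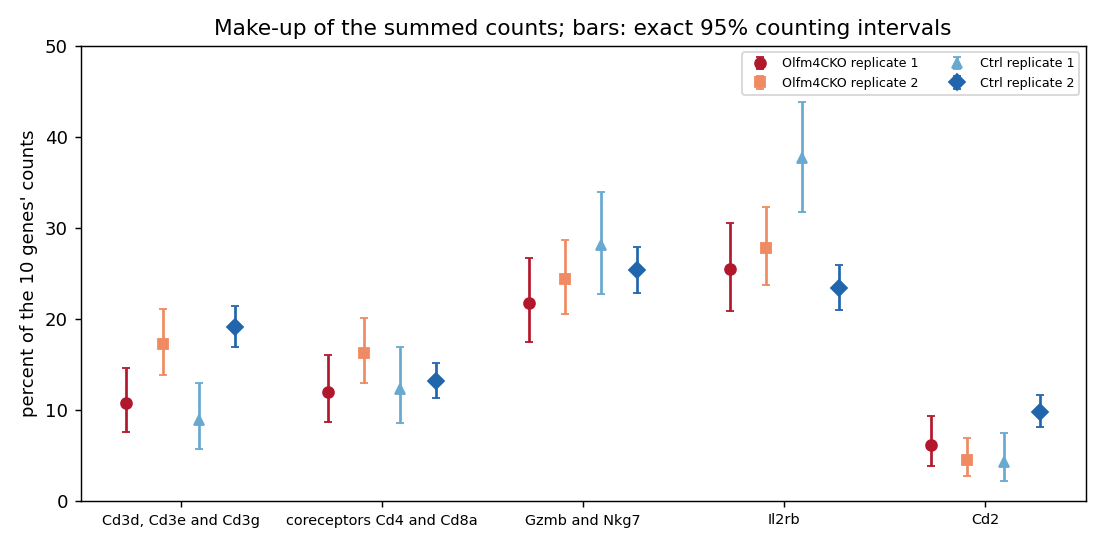
The share of the 10 genes' summed counts (percent) taken by each role in each library, with Olfm4CKO left of Ctrl and bars for exact 95% counting intervals; Cd247, which shares exon bases with Pou2f1, makes up the rest. Il2rb takes its largest share, 37.7%, in Ctrl replicate 1, where the 3 CD3 chains take their smallest, 8.85%.

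Other genes of T and NK cells were also mostly highest in Ctrl replicate 2, and none passed the test. In 3 further lists (T cell receptor chains and proximal signalling, T cell subset and homing genes, NK and cytotoxic genes), 55 of 61 symbols matched a row, and the highest library was Ctrl replicate 2 for 40 of the 55. Of these, 40 genes passed the filter on low counts, and 0 were called by edgeR, with 29 below 0 and a median log2 fold change of -0.43 (21 and -0.07 under limma-voom, 28 and -0.19 with the replicate block). Without Ctrl replicate 2, 5 of 39 lay below 0 and the median was 0.98. Of the receptor signalling genes, 13 of 14 tested lay below 0 (median -0.65), among them the kinase Lck, which phosphorylates the CD3 chains, with 1.36 and 3.05 CPM in Olfm4CKO, against 1.13 and 8.36 CPM in Ctrl. Fyn, a related kinase of many tissues and the most abundant gene of that list, had its highest level in Ctrl replicate 1 instead, at 21.4 and 15.2 CPM in Olfm4CKO, against 31.2 and 17.3 CPM in Ctrl. Of the NK and cytotoxic genes, 9 of 13 tested lay below 0 and 4 above (median -0.44). Under limma-voom 6 of the 13 lay below 0 (median 0.04). For 2 of the 13 Olfm4CKO lay wholly above Ctrl and for 0 wholly below, against 11.8% and 12.8% of all tested genes. Granzyme A, Gzma, had 3.62 and 6.49 CPM in Olfm4CKO, against 2.07 and 16.9 CPM in Ctrl. Tbx21, of the same list, had 1.36 and 2.54 CPM in Olfm4CKO, against 0.877 and 2.73 CPM in Ctrl. The chemokine gene Ccl5 had 8.91 and 7.89 CPM in Olfm4CKO, against 3.19 and 19.5 CPM in Ctrl. The subset and homing list was split, with 7 of 13 below 0 (median -0.09), and Tcf7, a factor of naive and memory T cells, had 1.16 and 3.18 CPM in Olfm4CKO, against 1.00 and 9.13 CPM in Ctrl.

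In 2 lists of partners of the 10 genes, 6 of 13 tested genes each were highest in Ctrl replicate 2, against 26.2% of all tested genes. Both lists mix genes that many cell types express with genes of leukocytes. For IL-2 and IL-15 receptor signalling, 8 of 13 tested genes lay below 0 (median -0.06), and the kinase gene Jak1, which acts downstream of Il2rb, had 84.7 and 104 CPM in Olfm4CKO, against 102 and 84.0 CPM in Ctrl. For ligands of T and NK receptors, 8 of 13 lay below 0 (median -0.25), and the class I heavy chain gene H2-K1, whose product CD8 binds, had 724 and 506 CPM in Olfm4CKO, against 716 and 873 CPM in Ctrl. No gene of either list was called by edgeR.

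The genes most like the 10 across the libraries were found by the root mean square difference from the mean profile of the 10, on log2(CPM + 0.5) centred over the 4 libraries, where the profile itself was -0.45 and 0.0067 in Olfm4CKO and -0.77 and 1.21 in Ctrl. Nearest of all was Prkcq, a kinase of T cell receptor signalling, with a difference of 0.019, at 1.29 and 2.04 CPM in Olfm4CKO, against 0.939 and 5.28 CPM in Ctrl. Next came Fdps, an enzyme of sterol synthesis (0.083), Sash3, a lymphocyte adaptor (0.095), Tbc1d10c (0.098), the B cell receptor gene Cd79a (0.100) and Selplg, a leukocyte ligand of selectins (0.108). Fdps, at 30.6 and 46.2 CPM in Olfm4CKO against 23.4 and 92.1 CPM in Ctrl, is expressed in most cell types. Of the 100 genes most like the 10, predicted genes and pseudogenes included, 13 are on a T, NK, IL-2 and IL-15 or ligand list. Among the 10 themselves, Nkg7 (0.181) and Cd3d (0.192) lay nearest to their mean profile, and Cd8a (0.485) and Cd247 (0.541) farthest.

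The pan-leukocyte, macrophage and dendritic cell, and B cell marker lists also had their highest summed level in Ctrl replicate 2. The 10 pan-leukocyte markers summed to 84.3 and 141 CPM in Olfm4CKO, against 71.0 and 275 CPM in Ctrl, and all 10 of them were highest in Ctrl replicate 2. The summed counts of the T and NK genes came to 25% and 20% of the summed pan-leukocyte counts in Olfm4CKO, against 22.9% and 25.6% in Ctrl, a narrower range than that of either sum. Relative to macrophage and dendritic cell markers (258 and 295 CPM in Olfm4CKO, against 220 and 482 CPM in Ctrl, 8 of 12 tested highest in Ctrl replicate 2) they came to 8.16% and 9.54% in Olfm4CKO, against 7.41% and 14.6% in Ctrl. B cell and plasma cell markers summed to 10.4 and 8.78 CPM in Olfm4CKO, against 4.38 and 24.3 CPM in Ctrl, with 5 of 6 tested highest in Ctrl replicate 2. Of the lymph node stroma markers, 9 of 10 matched (5.23 and 8.84 CPM in Olfm4CKO, against 6.76 and 16.2 CPM in Ctrl). Ccl21a had 0 counts in all 4 libraries, and Glycam1 had 1 and 0 counts in Olfm4CKO and 0 and 5 in Ctrl. Ccl19 had 0 and 3 counts in Olfm4CKO, against 0 and 9 in Ctrl, and Cxcl13 7 and 7, against 2 and 11. Madcam1 had 3 and 7 counts in Olfm4CKO, against 0 and 4 in Ctrl. Lyve1 had 18 and 75 counts in Olfm4CKO, against 77 and 71 in Ctrl, and Prox1 13 and 13, against 9 and 12. Ltb, which lymphocytes express, made up 159 of the 273 counts of Ctrl replicate 2. The part of these other cells in the levels of the T and NK genes was not tested.

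Other tissue markers took other orders. The 5 red blood cell markers summed to 981 and 1682 CPM in Olfm4CKO, against 812 and 1357 CPM in Ctrl, with 0 of 5 highest in Ctrl replicate 2. The 8 skeletal muscle markers summed to 153 and 15.7 CPM in Olfm4CKO, against 55.1 and 10.7 CPM in Ctrl, so that the library with the most T and NK transcripts had the least of muscle. Endothelial markers summed to 1370 and 1252 CPM in Olfm4CKO, against 880 and 818 CPM in Ctrl, with all 6 above 0 and 0 called. The part of muscle carried along in dissection, or of the sex-linked difference between the controls, in the levels of the T and NK genes was not tested.

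**Figure D4:**
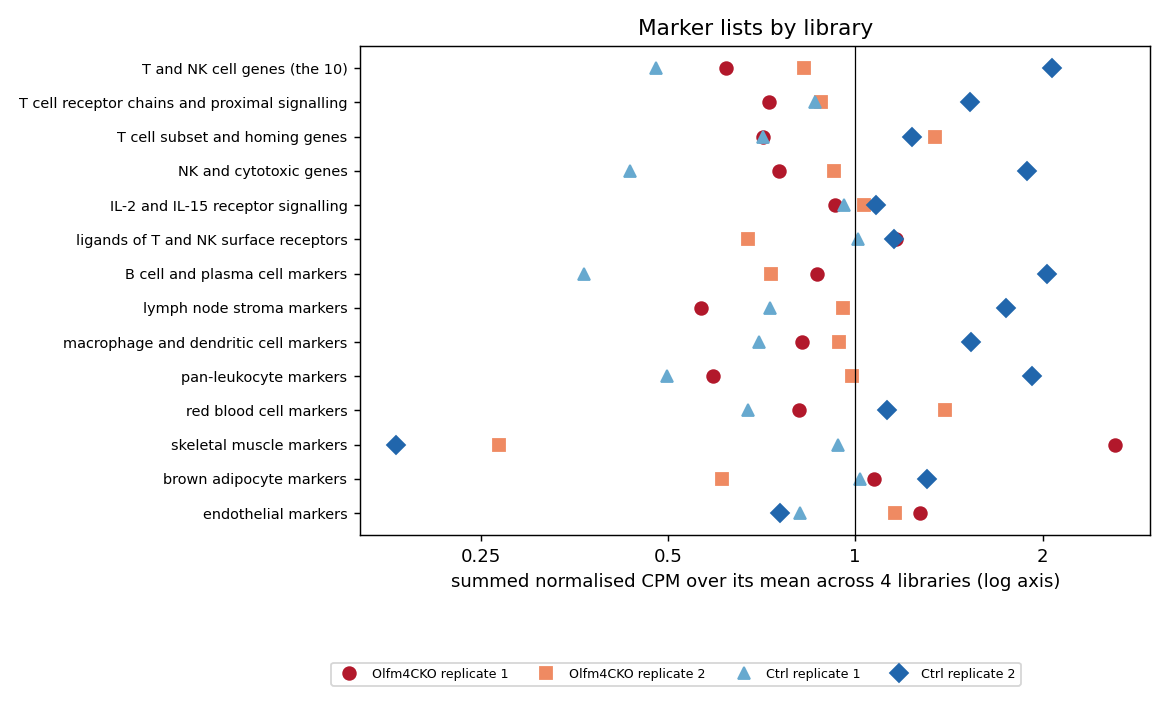
Summed normalised CPM of each marker list in each library, divided by the list's mean over the 4 libraries (log axis), with the 10 T and NK genes in the top row. Ctrl replicate 2 (dark blue diamonds) is the highest library for the 10 genes and for the T cell receptor, NK, IL-2 and IL-15, B cell, lymph node stroma, macrophage, pan-leukocyte and brown adipocyte lists, and the lowest for skeletal muscle and endothelial markers.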

How the data were processed

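For these brown fat libraries the submitters' processing notes name cutadapt 1.11, HISAT2 2.1.0, featureCounts 1.6.0 and the mm10 build; annotation and strand setting were not given in the sources used here. The authors' deposited values are whole numbers with unequal totals and were read as raw counts, although the name of the table says FPKM. Of 35978 rows, 3 of a broken entry hold no counts. The 2 columns of replicate 3, filled for 24276 rows, enter no comparison, since their rows do not follow the gene names.

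The main test was edgeR's quasi-likelihood test (edgeR 4.0.16, R 4.3.3) with group as the single term, after TMM scaling and filterByExpr, which asked for 10 counts and a total of 15. P-values were adjusted by Benjamini-Hochberg across the tested genes, with 0.05 as threshold. Each SE was derived from the fold change and its F statistic. CPM values are normalised by TMM-scaled library sizes. Replicates of a group differed by more than sampling noise, with chi-square over degrees of freedom at 130 in Olfm4CKO and 85.2 in Ctrl. With 2 libraries a group an exact permutation test of single values cannot pass a threshold, so none was run. Lengths are unions of GENCODE vM21 exons. Of 178 listed symbols in 14 lists, 169 matched a row. The 10 genes and the lists were chosen with earlier results of these data known. Genes named outside the 10 come from the 4 most abundant tested genes of a list (8 for brown adipocytes) or are the 6 most like the 10. The latter leave out predicted genes and pseudogenes. Pou2f1, Ddx3y, Eif2s3y, Uty, Kdm5d, Xist, Ccl21a, Glycam1, Ccl19, Cxcl13 and Madcam1 were named after their values were seen. Not every gene that this rule names is reported here. Alternatives used other filters and scalings, DESeq2 1.42.0, limma-voom (limma 3.58.1), each library left out and the replicate number as a block. The fits were also run on simulated counts as a check of the code. The simulation gave all genes the same spread, so it gives no measure of power for these 10.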

Additional observations from a re-analysis of the deposited data

How the results depend on the processing

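No alternative called any of the 10 genes. Over all genes tested, edgeR called 0, DESeq2 1, the fit with the replicate block 4, and fits with 1 library left out 6 to 27. Of the 10 genes, 10 lay below 0, and 1 to 10 with 1 library left out; of the 40 wider T and NK genes, 29 lay below 0, and 5 to 35 with 1 library left out. The difference in summed level, -18.8 CPM, ran from -45.9 to 8.30 CPM. Log2 fold changes with 1 library left out ran from -2.42 to 0.90 for Cd2, -2.25 to 1.30 for Cd3d, -0.96 to 1.25 for Cd3e, -2.32 to 1.35 for Cd3g, -1.32 to 0.67 for Cd4, -2.54 to 1.04 for Cd8a, -0.75 to 1.43 for Cd247, -1.32 to 0.12 for Il2rb, -1.84 to 0.99 for Nkg7 and -1.38 to -0.15 for Gzmb. Cd247 changed sign with total counts only (0.0011), under limma-voom (0.25) and with the replicate block (0.22), and Cd3e under limma-voom (0.015); the cause was not tested. Under the other filters and RLE scaling all 10 kept their sign and stayed above the threshold. Replicate numbers are shared between the groups, but the labels tie them to nothing and deviations of same-numbered libraries correlated at 0.0027 across genes; the block changed the call of none of the 10. Between 6 and 278 counts per gene and library limit the precision.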
